A study of Mus musculus with 34 samples.

Results

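The 9 genes described here encode parts of the complement system and were taken by symbol from both count tables: the C1q chains C1qa, C1qb and C1qc, the proteases C2 and Cfb, the central component C3, its stabiliser Cfp, the receptor C3ar1 and the regulator Cd55. Each symbol was found in both tables, which makes 9 of 52550 genes in the main set and 9 of 25498 genes in a smaller set that the labels call batch 1. Complement is a cascade of serum proteins that tags particles and dying cells for uptake. Its classical branch begins when C1q binds a target, its alternative branch is built from C3 and factor B and held together by properdin, and both converge on the cleavage of C3. Macrophages are a main source of C1q in tissues, make C3 and properdin locally, and respond to C3a through its receptor.

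The RNA came from macrophages that had been grown out of mouse bone marrow for 6 days with 10 ng/ml of the growth factor M-CSF and then rested for 24 h. The question addressed by the series is how mutations common in clonal hematopoiesis, the outgrowth of a mutated blood stem cell clone, alter these cells. The genotypes were Dnmt3aKO (Dnmt3afl/fl;Vav-Cre, loss of a DNA methyltransferase), Tet2KO (Tet2fl/fl;Vav-Cre, loss of an enzyme that oxidises methylcytosine), Jak2VF (Jak2V617F/WT;Vav-Cre, one activated allele of a cytokine receptor kinase) and WT (Vav-Cre). Every group, WT included, carried Vav-Cre, which is driven by a promoter active in blood cells, so other cell types of the marrow would keep their floxed alleles. The mice were 10 to 14 weeks old. Each genotype was given vehicle or low-density lipoprotein (LDL), the cholesterol carrier of plasma, at 200 mg/dL for 24 h. There were 24 libraries in the main set, 3 per combination of genotype and treatment. Batch 1 held 10 libraries, 2 with LDL and 3 with vehicle for each of Tet2KO and WT. The sources do not say whether replicate libraries stem from different mice, so the p-values speak only of the spread among libraries, which may be technical.

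Library totals were 24105237 to 43904761 counts for the main set, and 15171143 to 44449473 counts for batch 1. Levels are given as CPM, counts relative to a library total that was scaled by TMM to make libraries comparable, and the 2 sets were scaled apart. Differences are log2 fold changes from the edgeR quasi-likelihood test with their standard error (SE), and a gene was called at an adjusted p (Benjamini-Hochberg over all tested genes) under 0.05. The macrophage markers were high in every library (8 genes, summed 19100 to 33400 CPM in the main set), and 6 genes of stromal cells such as Col1a1 were high as well, at 7540 to 16000 CPM in the main set and 397 to 3300 CPM in batch 1. In these bulk samples fewer cells of a type and less RNA per cell cannot be told apart. Dnmt3a held 32.6 to 36.6 CPM in Dnmt3aKO and 54.6 to 71.2 CPM in WT with vehicle, whereas Tet2 held 32.8 to 38.6 CPM in Tet2KO and 19.9 to 32.2 CPM in WT. Whole-gene counts of Dnmt3a, Tet2 and Jak2 do not settle the labels, since a floxed gene keeps exons and a base change leaves the count as it is. Replicate 3 of Tet2KO with LDL and replicate 3 of WT with LDL held more Gfap, an astrocyte gene, than any other library (4.26 and 2.72 CPM, against at most 0.714 CPM elsewhere). Libraries also differed in how strongly level depended on gene length: the slope ran from -0.221 to 0.114 on the log2 scale per standard deviation of length, and was lowest in WT LDL replicate 1, Jak2VF vehicle replicate 1 and Tet2KO LDL replicate 1.

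Members differed by several orders of magnitude in level. Per kilobase of exon, the median over the 24 main libraries was 823 CPM per kb for C1qb, 471 for C1qa, 411 for C1qc, 229 for Cfp, 180.3 for C3ar1 and 28.7 for C3, but 1.33 for Cd55, 0.124 for C2 and 0.0492 for Cfb. All 9 passed the filter on low counts in the main set, and 8 passed in batch 1, where Cfb did not.

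**Figure D1:**
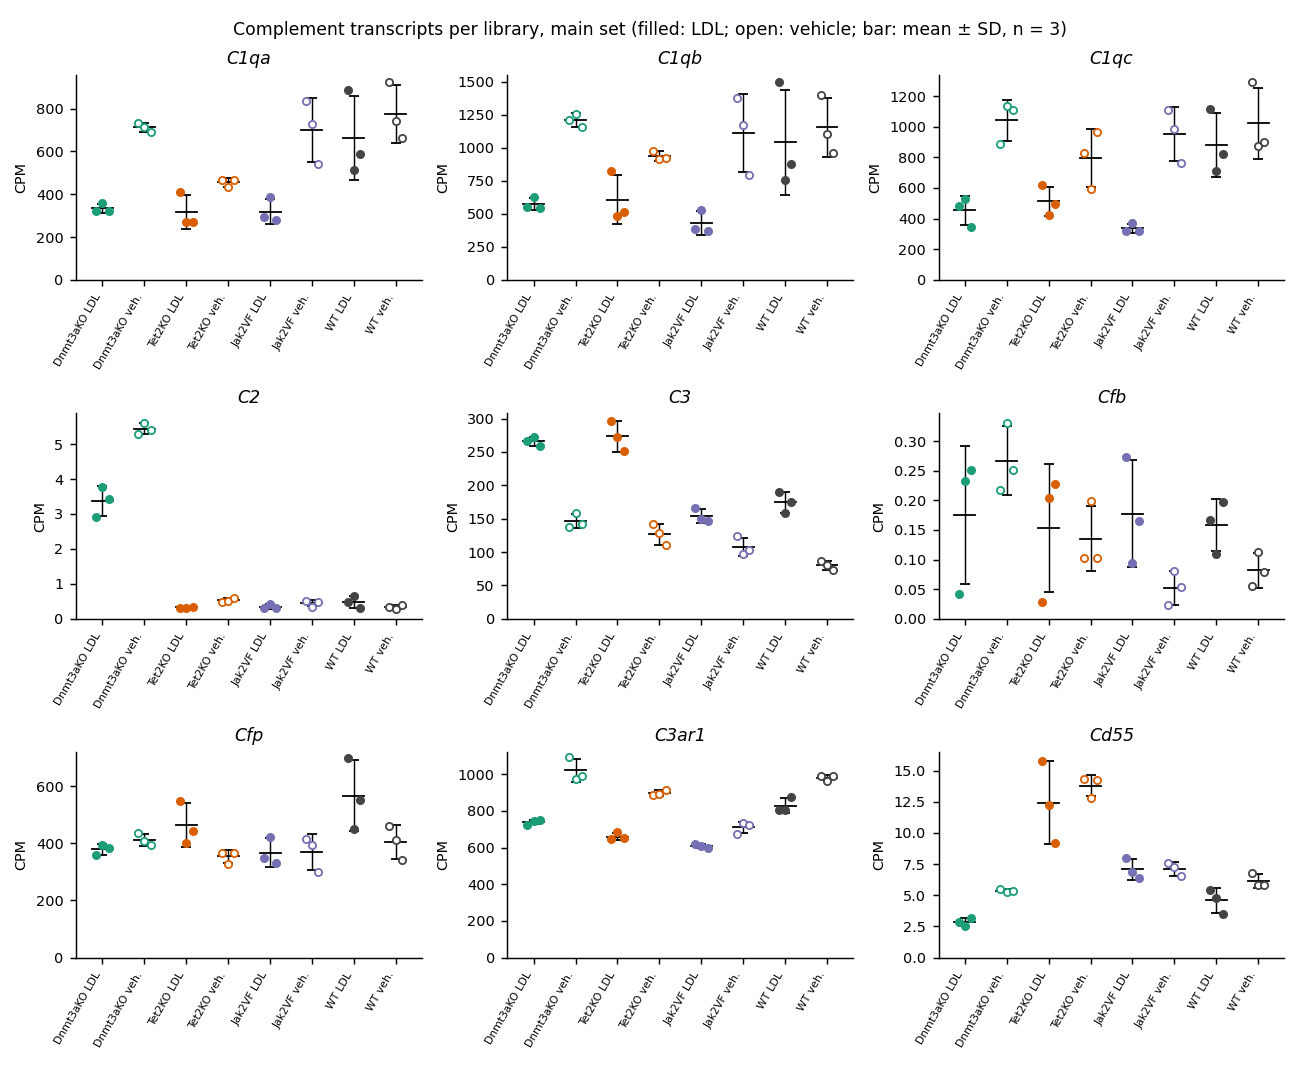
Level (CPM) of each of the 9 complement genes in the 24 libraries of the main set, by genotype and treatment. Points are libraries, filled for LDL and open for vehicle, with bars for the mean and SD of 3. C2 stands apart in Dnmt3aKO, Cd55 is highest in Tet2KO, C3 is higher with LDL than with vehicle in each genotype, and the 3 C1q chains are lower with LDL in Dnmt3aKO and Jak2VF.

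With LDL against vehicle, 7 of the 9 members were called in Dnmt3aKO, 1 higher and 6 lower, where 15.4% of all tested genes were called. In Tet2KO 3 were called (1 higher, 2 lower, background 16.8%), in Jak2VF 5 (1 higher, 4 lower, background 18.2%) and in WT 3 (2 higher, 1 lower, background 14.2%). The median log2 fold change of the 9 was -0.68 in Dnmt3aKO, where that of all tested genes was -0.018. It was -0.44 in Tet2KO (all genes -0.002), -0.22 in Jak2VF (all genes -0.023) and -0.15 in WT (all genes 0). Against WT with vehicle, 2 members were called in Dnmt3aKO (both higher, background 11.1%), 3 in Tet2KO (2 higher, 1 lower, background 5.47%) and 2 in Jak2VF (1 higher, 1 lower, background 9.55%). Against WT with LDL, 7 were called in Dnmt3aKO (2 higher, 5 lower, background 17.5%), 5 in Tet2KO (2 higher, 3 lower, background 2.76%) and 6 in Jak2VF (1 higher, 5 lower, background 9.97%). The comparisons with one WT group share its 3 libraries. The counts against WT with LDL depended on the spread of all 8 groups: fitted on the compared groups alone, Dnmt3aKO had 4 members called (6.6% of all genes), Tet2KO had 0 (0.195%) and Jak2VF had 1 (1.36%). The calls lost there, with adjusted p from 0.0591 to 0.635, were C1qb, Cfp and Cd55 in Dnmt3aKO, C1qa, C1qc, C3, C3ar1 and Cd55 in Tet2KO, and C1qa, C1qb, Cfp, C3ar1 and Cd55 in Jak2VF. In the same kind of fit the LDL responses of Cfp and C3ar1 in WT, C1qc in Tet2KO and C3ar1 in Jak2VF and the C3 difference of Jak2VF with vehicle were not called either (adjusted p from 0.0785 to 0.255). Without WT LDL replicate 1 the Dnmt3aKO count was 4, where 1976 of all 19444 genes were called, against 3397 with every library. Without Jak2VF LDL replicate 1 the Jak2VF count was 4, where 747 of all genes were called, against 1938.

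**Figure D2:**
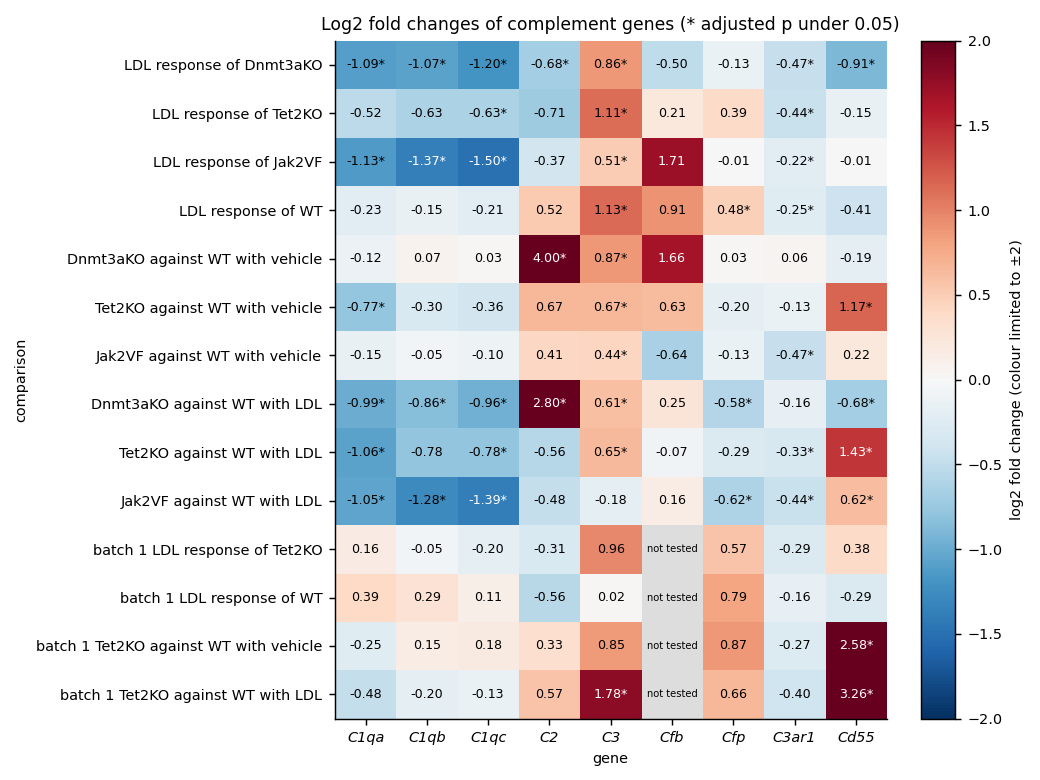
Log2 fold changes of the 9 genes in 14 comparisons, the numerator named first. Red is higher, blue is lower, and an asterisk marks an adjusted p under 0.05. C3 rises with LDL in the 4 genotypes of the main set, and Cd55 is called as higher in Tet2KO than in WT in both treatments of both sets.

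C1qa, C1qb and C1qc encode the 3 chains of C1q, the recognition molecule of the classical branch, and lie side by side on the minus strand of chromosome 4 (GRCm38): C1qb at chr4:136880129-136886187, C1qc at chr4:136889804-136893065 and C1qa at chr4:136895917-136898803. Their exons cover 1088, 1931 and 1040 bases. The RefSeq promoter windows of C1qb and C1qc (250 bases before to 50 after the start, GRCm38.p6, minus strand, 5′ to 3′) are shown because these neighbours moved together. Capitals mark the core of the PU.1 motif (GAGGAA or its complement TTCCTC), a factor that macrophages depend on, and in C1qb also a MAF half-site (TGCTGA).
C1qb, chr4:136886151-136886450: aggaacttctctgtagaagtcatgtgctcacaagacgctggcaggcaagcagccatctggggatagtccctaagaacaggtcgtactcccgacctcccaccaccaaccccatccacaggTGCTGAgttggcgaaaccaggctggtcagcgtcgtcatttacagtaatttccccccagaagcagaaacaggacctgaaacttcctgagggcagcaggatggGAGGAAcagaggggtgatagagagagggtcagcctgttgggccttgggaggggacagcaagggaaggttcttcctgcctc
C1qc, chr4:136892865-136893164: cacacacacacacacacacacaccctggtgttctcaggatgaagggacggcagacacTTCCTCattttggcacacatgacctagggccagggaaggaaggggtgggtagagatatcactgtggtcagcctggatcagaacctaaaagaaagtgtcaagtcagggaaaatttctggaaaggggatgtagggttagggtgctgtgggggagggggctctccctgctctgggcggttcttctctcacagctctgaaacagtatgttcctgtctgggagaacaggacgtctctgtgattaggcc
Both strands were searched for 7 motifs. The PU.1 core was present in 28.3% of 32851 promoters of this length and the MAF half-site in 19.5%. C1qc also held a match to kappaB (4.51% of promoters) and to C/EBP (TTNNGNAA, 40.7%), left in lower case here. A match describes the letters only. The C1qa window was not used here.

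C1q transcripts were lower with LDL than with vehicle in Dnmt3aKO and Jak2VF macrophages. C1qb held 551, 628 and 548 CPM in Dnmt3aKO with LDL, against 1213, 1259 and 1157 CPM in Dnmt3aKO with vehicle. In Jak2VF it held 389, 532 and 368 CPM with LDL, against 1373, 1170.2 and 794 CPM with vehicle. The LDL and vehicle libraries did not overlap in either genotype. The LDL difference was -1.07 ± 0.24 log2 units in Dnmt3aKO (edgeR adjusted p = 0.00261) and -1.37 ± 0.24 in Jak2VF (adjusted p = 0.000296). C1qa fell by 1.09 ± 0.20 in Dnmt3aKO (334 ± 21.8 CPM with LDL, 713 ± 20.7 CPM with vehicle, SD, n = 3 each) and by 1.13 ± 0.20 in Jak2VF. C1qc fell by 1.20 ± 0.21 in Dnmt3aKO and by 1.5 ± 0.21 in Jak2VF, where it held 318, 372 and 322 CPM with LDL against 1107, 984 and 764 CPM with vehicle. The monocyte marker sum was also lower with LDL without overlap, at 165 to 225 CPM against 396 to 431 CPM with vehicle in Dnmt3aKO and at 70.0 to 88.0 CPM against 181 to 219 CPM with vehicle in Jak2VF. So was the macrophage marker sum in Dnmt3aKO, at 27600 to 30200 CPM against 31600 to 33400 CPM with vehicle, and the stromal sum in both. Of 7 macrophage markers with values of their own, 5 in Dnmt3aKO and 2 in Jak2VF, Adgre1 in both, were lower with LDL without overlap, and Cd14 was higher. In WT the monocyte sum was lower as well (92.0 to 124 CPM with LDL, 217 to 238 CPM with vehicle). The part of these cell types in the C1q difference was not tested. Each of these 6 falls was still called after leaving out any 1 of the 6 libraries compared, with adjusted p up to 0.0173.

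In Tet2KO the chains were also lower with LDL, but less far beyond the spread. C1qb held 821, 484 and 514 CPM in Tet2KO with LDL, against 979, 912 and 924 CPM with vehicle, without overlap (-0.63 ± 0.23, adjusted p = 0.0715). C1qa differed by -0.52 ± 0.19 (adjusted p = 0.0706), and C1qc by -0.63 ± 0.21 (adjusted p = 0.0422), a call that was lost without any of 4 of the 6 libraries. Replicate 1 was the high library of the LDL group for all 3 chains. Without it C1qa and C1qb were called as well, at -0.76 (adjusted p = 0.0136) and -0.92 (adjusted p = 0.0141).

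In WT the LDL libraries overlapped the vehicle libraries. C1qb held 1497, 755 and 878 CPM in WT with LDL, against 1400.4, 1107 and 959 CPM with vehicle. Replicate 1 of the LDL group was the highest of all 24 libraries. The difference was -0.15 ± 0.23 for C1qb, -0.23 ± 0.19 for C1qa and -0.21 ± 0.21 for C1qc, and 2 SE either side reached from -0.61 to 0.32 for C1qb, so a fall within that interval was not detectable here. Whether the LDL response differed from WT was tested directly. For C1qc it was lower in Jak2VF by 1.28 ± 0.30 (adjusted p = 0.0289), where 2.47% of genes were called, and C1qb (-1.22 ± 0.33, adjusted p = 0.0517) and C1qa (-0.91 ± 0.27, adjusted p = 0.072) did not pass. For Dnmt3aKO (background 0.432%) and Tet2KO (background 0.103%) edgeR called 0 members in this test, and DESeq2 called 1 and 0. At an unadjusted p under 0.05 there were 6 of 9 members for Dnmt3aKO, where 14.1% of all genes passed that threshold, and 2 of 9 for Tet2KO, where 7.34% did. The Dnmt3aKO differences of the chains from WT were -0.87, -0.92 and -0.99, with adjusted p of 0.138 to 0.215.

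In every group but Tet2KO with vehicle, the library of lowest gene length slope held the highest C1qb of its group. The libraries of lowest slope in the main set, WT LDL replicate 1 (-0.221), Jak2VF vehicle replicate 1 (-0.182) and Tet2KO LDL replicate 1 (-0.162), were among these. A relation over all 24 libraries was not tested. With the slope as a covariate, an alternative chosen after these values were seen, C1q fell with LDL in all 4 genotypes. In WT the differences became -0.49 for C1qa (adjusted p = 1.09e-06), -0.48 for C1qb and -0.43 for C1qc, and in Jak2VF C1qb became -0.92. With the slope in the fit, the Jak2VF response of C1qc differed from that of WT by -0.72 (adjusted p = 0.0631) and was not called. The covariate takes up any pattern of a gene that goes with the slope, whatever the length of that gene. The part of gene length in the C1q levels was not tested.

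**Figure D3:**
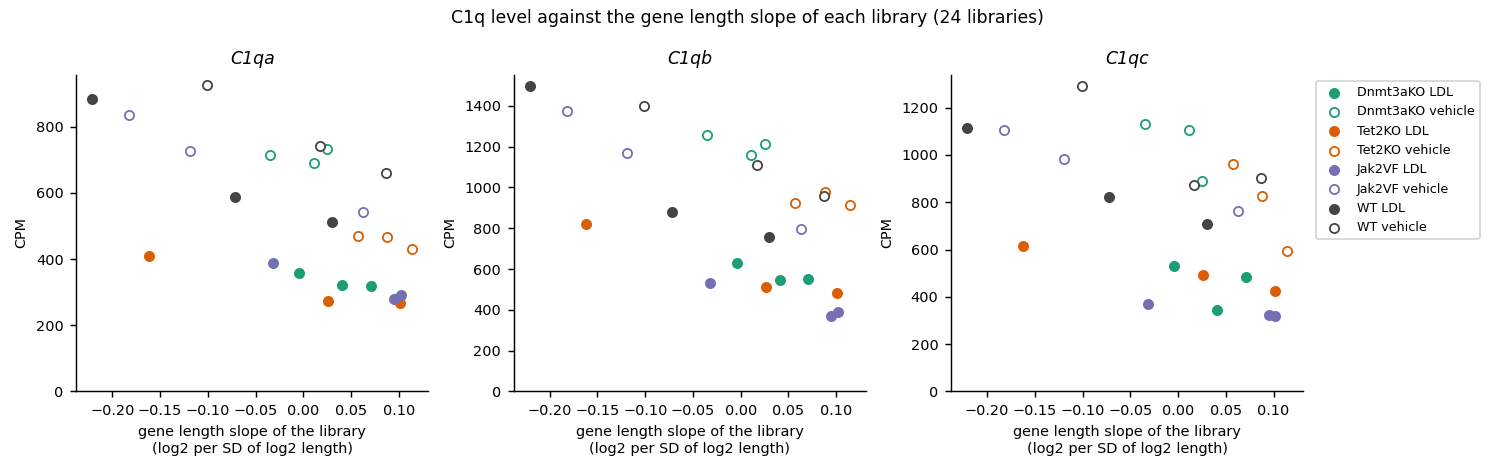
Level (CPM) of C1qa, C1qb and C1qc against the gene length slope of each main library (log2 change in level per standard deviation of log2 gene length). Points are the 24 libraries, filled for LDL and open for vehicle. WT LDL replicate 1, at -0.221, has the highest C1qb. In every group but Tet2KO with vehicle, the library of lowest slope holds the highest C1qb of its group.

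Against WT with LDL in the main set, C1q was lower in the mutants. C1qc was lower by 0.96 ± 0.21 log2 units in Dnmt3aKO (adjusted p = 0.0034), by 0.78 ± 0.21 in Tet2KO (adjusted p = 0.0479) and by 1.39 ± 0.21 in Jak2VF (adjusted p = 0.00034). For C1qa the differences were -0.99, -1.06 and -1.05, all called, and for C1qb -0.86, -0.78 (adjusted p = 0.0886) and -1.28. Part of each difference lies in WT LDL replicate 1: without it C1qb differed by -0.50 in Dnmt3aKO (adjusted p = 0.146), by -0.45 in Tet2KO (adjusted p = 0.474) and by -0.93 in Jak2VF (adjusted p = 0.0132). The C1qb call of Dnmt3aKO was also lost without its LDL replicate 1 (adjusted p = 0.0579) or 3 (adjusted p = 0.0687). The C1qc call of Tet2KO was lost in 4 of 6 fits, without WT LDL replicate 1 or 3 or Tet2KO LDL replicate 2 or 3 (adjusted p from 0.0892 to 0.242). The calls of C1qa in all 3 mutants and of C1qc in Dnmt3aKO and Jak2VF were kept in 6 of 6 fits. With vehicle, C1q levels of Dnmt3aKO and Jak2VF were within 0.15 log2 units of WT. C1qa alone was lower in Tet2KO with vehicle, at 466, 432 and 469 CPM against 925, 741 and 661 CPM in WT (-0.77 ± 0.19, adjusted p = 0.0204). The groups did not overlap, but the call was lost without WT vehicle replicate 1 (-0.62, adjusted p = 0.126) or without any Tet2KO vehicle library (adjusted p from 0.0562 to 0.0964).

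In batch 1, no C1q chain was called for LDL. C1qb held 1839 and 1543 CPM in Tet2KO with LDL, against 1530.4, 2199 and 1529 CPM in Tet2KO with vehicle. In WT it held 2280.2 and 1607 CPM with LDL, against 1603, 1572 and 1579 CPM with vehicle. The C1qb difference was -0.05 ± 0.20 in Tet2KO and 0.29 ± 0.20 in WT, and 2 SE below the Tet2KO value was -0.45. For C1qa it was 0.16 ± 0.21 in Tet2KO and 0.39 ± 0.21 in WT, and for C1qc -0.20 ± 0.17 in Tet2KO and 0.11 ± 0.17 in WT. For the LDL response in batch 1 edgeR called 0 members, and 0% of all genes, in either genotype. At an unadjusted p under 0.05 it had C3 and Cfp in Tet2KO (2 of 8, against 7.27% of all genes) and Cfp in WT (1 of 8, against 4.57%), and DESeq2 called 1 member in Tet2KO and 0 in WT. No C1q chain was called for Tet2KO against WT in batch 1, where 0.536% of all genes were called with LDL and 1.89% with vehicle. Over fits without 1 library, that difference with LDL was -0.719 to -0.176 for C1qa, -0.426 to 0.074 for C1qb and -0.324 to 0.095 for C1qc. With vehicle it was -0.433 to -0.102, -0.051 to 0.244 and 0.022 to 0.265.

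The chains did not keep one ratio across genotypes. In the main set the ratio of C1qa to C1qb counts was 0.4993 to 0.5544 in Tet2KO and 0.5915 to 0.6772 in WT with LDL, and 0.4736 to 0.5072 in Tet2KO and 0.6605 to 0.6889 in WT with vehicle. In batch 1 it was 0.1979 to 0.2188 in Tet2KO and 0.2466 to 0.2542 in WT with LDL, and 0.1621 to 0.198 in Tet2KO and 0.2178 to 0.2631 in WT with vehicle. The Tet2KO libraries thus lay below WT without overlap in 4 of 4 combinations of set and treatment. The ratio was 0.782 times that of WT (exact permutation test within set and treatment, two-sided, 48000 arrangements, p = 4.17e-05, the smallest they can give, adjusted p = 0.000375 over 9 such tests). The ratio of C1qc to C1qb was 1.0 times that of WT in Tet2KO (exact permutation p = 0.977), and that of C1qa to C1qc was 0.781 times (exact permutation p = 8.33e-05). In Dnmt3aKO the C1qa to C1qb ratio was 0.888 times that of WT (exact permutation adjusted p = 0.015), and in Jak2VF 1.05 times (exact permutation adjusted p = 0.527). The Jak2VF value averages treatments that differed. With LDL its ratio was 0.7273 to 0.7587, above WT without overlap, and with vehicle it was 0.6076 to 0.6817, overlapping WT. These ratios were chosen after the values were seen. A ratio within a library does not depend on its total. It says that the counts of the 2 genes differed unequally, not which of them differed. The ratio in WT with vehicle was 0.6605 to 0.6889 in the main set and 0.2178 to 0.2631 in batch 1, and whether both tables were counted with 1 annotation and read layout is not stated, so what share of each transcript the counts cover is not known.

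**Figure D4:**
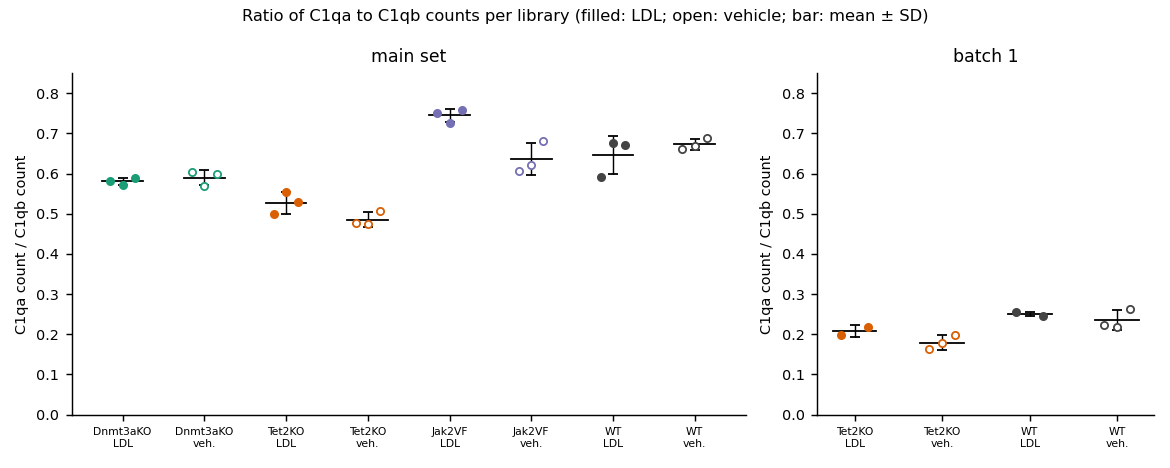
Ratio of C1qa counts to C1qb counts per library in the main set and in batch 1, by genotype and treatment. Points are libraries, filled for LDL and open for vehicle, with bars for the mean and SD of 3 (2 for LDL in batch 1). Tet2KO lies below WT in both sets and both treatments, and the ratio itself differs between the sets.

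C2 and Cfb are related proteases that form the C3 convertases of the classical and the alternative branch, and their genes are neighbours on chromosome 17 (GRCm38, minus strand), C2 at chr17:34862604-34898265 and Cfb at chr17:34856374-34862518. C2 was present at 5.30, 5.61 and 5.39 CPM in Dnmt3aKO with vehicle, against 0.328, 0.283 and 0.393 CPM in WT with vehicle. With LDL it was at 2.93, 3.78 and 3.44 CPM in Dnmt3aKO, against 0.473, 0.661 and 0.295 CPM in WT. No Dnmt3aKO library overlapped any library of the other genotypes, in which C2 stayed at or below 0.661 CPM. Raw C2 counts were 214 to 220 in Dnmt3aKO with vehicle and 10 to 15 in WT with vehicle. The difference was 4.0 ± 0.21 log2 units with vehicle (edgeR adjusted p = 3.57e-11), which is 16-fold, and 2.80 ± 0.21 with LDL (adjusted p = 6.46e-09). It was called in each of the 6 leave-one-out fits of either comparison, at 3.90 to 4.14 with vehicle and 2.58 to 3.11 with LDL. Within Dnmt3aKO, C2 fell with LDL by 0.68 ± 0.17 (adjusted p = 0.00601), and this response differed from that of WT by -1.20 ± 0.31 (adjusted p = 0.0836). In Tet2KO and Jak2VF C2 did not pass against WT, at 0.67 ± 0.25 and 0.41 ± 0.26 with vehicle. In batch 1 it held 0.312 to 0.667 CPM in Tet2KO and 0.225 to 0.571 CPM in WT.

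Neutrophil markers were also high in Dnmt3aKO with vehicle (9 genes, summed 605 to 653 CPM, against 166 to 228 CPM in WT), led by S100a9 and S100a8. They were at 520 to 691 CPM in Jak2VF with vehicle, where C2 held 0.348 to 0.502 CPM. The monocyte sum (396 to 431 CPM, against 217 to 238 CPM in WT) and the B cell sum (31.2 to 36.7 CPM, against 15.6 to 24.3 CPM in WT) were higher in Dnmt3aKO with vehicle too. In Tet2KO, where C2 held 0.491 to 0.592 CPM, they were at 412 to 495 CPM and 32.1 to 38.1 CPM, and in Jak2VF at 181 to 219 CPM and 13.3 to 18.2 CPM. The part of these cell types in the C2 difference was not tested. None of the 9 neutrophil markers was at 0 throughout, although Ly6g, which defines the mature cells, was at most 0.26 CPM as a group mean. Dnmt3aKO was also set against the other mutants, in contrasts added after the values were seen. With vehicle, 3 members were called against Tet2KO (background 8.78%) and 4 against Jak2VF (background 19.2%), and with LDL 2 (background 11.3%) and 4 (background 15.6%). Between Tet2KO and Jak2VF, 3 were called with vehicle (background 15.5%) and 2 with LDL (background 6.1%), C3 (0.83 ± 0.11) and Cd55 (0.81 ± 0.16) being the higher ones in Tet2KO with LDL. C2 was higher in Dnmt3aKO than in Tet2KO by 3.34 ± 0.20 with vehicle and 3.37 ± 0.22 with LDL, and higher than in Jak2VF by 3.59 ± 0.20 and 3.28 ± 0.21.

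Cfb, factor B, was close to the limit of counting. Its counts were 9, 13 and 10 in Dnmt3aKO with vehicle, 4, 5 and 4 in Tet2KO, 1, 3 and 2 in Jak2VF and 2, 4 and 3 in WT. The difference between Dnmt3aKO and WT was 1.66 ± 0.57 (adjusted p = 0.0684). It did not exceed 13 counts in any main library and 10 in any batch 1 library. Cfb was not called in the LDL responses or against WT, and against Jak2VF with vehicle it was higher in Dnmt3aKO (2.31 ± 0.61, adjusted p = 0.0106), a call lost without Jak2VF vehicle replicate 1. Exons of C2 and Cfb overlap other annotated genes, by 46.9% and 79.5% of their bases, mostly a read-through gene, Gm20547, that was at 0 counts in every main library. How shared reads were counted is not given in the sources used here, so both levels may be understated and reads of the pair cannot be fully told apart.

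C3, the component on which all branches converge, lies at chr17:57203970-57228136 (GRCm38, minus strand). Its RefSeq promoter window (GRCm38.p6, minus strand, 5′ to 3′) is shown because C3 was the one member to rise with LDL in every genotype of the main set. Capitals mark its 3 matches to C/EBP (TTNNGNAA), the motif of a family of factors active in myeloid cells.
C3, chr17:57228087-57228386: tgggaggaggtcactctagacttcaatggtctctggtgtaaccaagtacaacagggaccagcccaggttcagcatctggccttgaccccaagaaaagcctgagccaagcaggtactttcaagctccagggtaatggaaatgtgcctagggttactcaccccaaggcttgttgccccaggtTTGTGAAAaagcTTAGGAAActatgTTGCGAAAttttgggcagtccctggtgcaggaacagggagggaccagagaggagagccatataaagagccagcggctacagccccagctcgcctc
At least 1 such match was found in 40.7% of promoters, and C3 held no match to AP-1 (TGANTCA, 7.81%) or kappaB. It also held a MAF half-site, left in lower case.

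C3 rose with LDL and was higher in the mutants with vehicle. In Dnmt3aKO it held 267, 273 and 258 CPM with LDL, against 138, 158 and 143 CPM with vehicle. In Tet2KO it held 297, 273 and 251 CPM with LDL, against 142, 128 and 110.1 CPM with vehicle. The LDL and vehicle libraries did not overlap in any genotype. In Jak2VF the values were 165, 149 and 146 CPM with LDL, against 123, 97.4 and 103 CPM with vehicle, and in WT 189, 158 and 175 CPM with LDL, against 86.1, 80.4 and 73.0 CPM with vehicle. The rise was 0.86 ± 0.11 log2 units in Dnmt3aKO (adjusted p = 3.42e-06), 1.11 ± 0.11 in Tet2KO (adjusted p = 1.35e-07), 0.51 ± 0.10 in Jak2VF (adjusted p = 0.00162) and 1.13 ± 0.11 in WT (adjusted p = 1.18e-07). The response was smaller in Jak2VF than in WT by 0.62 ± 0.15 (adjusted p = 0.0345). That difference was called in 5 of the 12 fits that left out 1 library.

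With vehicle, C3 was higher than in WT by 0.87 ± 0.11 in Dnmt3aKO (adjusted p = 5.6e-06), by 0.67 ± 0.11 in Tet2KO (adjusted p = 0.000334) and by 0.44 ± 0.11 in Jak2VF (adjusted p = 0.0104). All 3 mutants lay above WT without overlap. The Jak2VF call was lost without WT vehicle replicate 3 (0.38, adjusted p = 0.0702) or Jak2VF vehicle replicate 1 (0.34, adjusted p = 0.066). With LDL, C3 was higher in Dnmt3aKO (0.61 ± 0.10) and Tet2KO (0.65 ± 0.10), while Jak2VF overlapped WT (-0.18 ± 0.10, adjusted p = 0.243). Stromal cells can also make C3. With LDL their marker sum was lower without overlap in Dnmt3aKO (7670 to 8440 CPM, against 10600 to 11100 CPM with vehicle), Tet2KO (7540 to 9770 CPM, against 10800 to 13000 CPM) and Jak2VF (11000 to 11700 CPM, against 12000 to 16000 CPM), and overlapped in WT (8370 to 10600 CPM, against 10300 to 11400 CPM). With vehicle it was higher than in WT without overlap in Jak2VF, where C3 was higher too, and overlapped WT in Dnmt3aKO and Tet2KO. Its part in the C3 differences was not tested. Genes of the stromal list differed among themselves. With vehicle, Col3a1, Lum and Pdgfra were above WT without overlap in Dnmt3aKO and Col1a2 was below. Lum was above WT in Tet2KO, and Col1a1, Col3a1, Dcn and Lum were above WT in Jak2VF, without overlap. Dcn was higher with LDL without overlap in WT (471 CPM on average with LDL, 320.1 CPM with vehicle) and Dnmt3aKO, as was Pdgfra in Dnmt3aKO. In Tet2KO and Jak2VF no stromal marker was higher without overlap. Col1a2 was lower with LDL without overlap in each genotype, Col1a1 in each mutant, and Lum in Tet2KO and Jak2VF.

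In batch 1 C3 was higher in Tet2KO than in WT, at 533 and 378 CPM against 118 and 147 CPM with LDL (1.78 ± 0.27, adjusted p = 0.0264), and at 167, 267 and 268 CPM against 139, 144 and 108 CPM with vehicle (0.85 ± 0.21, adjusted p = 0.0988). The groups did not overlap in either treatment. With LDL, 0.536% of genes were called, and 2 members, C3 and Cd55, were among them, but the C3 call was lost without any 1 of the 4 libraries (adjusted p from 0.0779 to 0.148). The rise of C3 with LDL seen in WT of the main set was 0.02 ± 0.24 in WT of batch 1, and 0.96 ± 0.23 in Tet2KO (adjusted p = 0.273). In batch 1 the stromal sum of Tet2KO (608 to 3300 CPM with vehicle, 688 to 3050 CPM with LDL) lay above that of WT with LDL (448 to 459 CPM) and overlapped WT with vehicle (397 to 701 CPM), and its part in the C3 difference was not tested.

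Cfp encodes properdin, which stabilises the alternative convertase and lies at chrX:20925454-20931555 (GRCm38). Its values varied more within groups than those of C3. Cfp held 547, 399.6 and 444 CPM in Tet2KO with LDL, against 367, 328 and 367 CPM with vehicle (0.39 ± 0.15, adjusted p = 0.0878). In WT it held 698, 449.8 and 551 CPM with LDL, against 461, 413 and 342 CPM with vehicle. The WT groups overlapped, and the rise of 0.48 ± 0.15 was called (adjusted p = 0.0371) but lost without any of 4 of the 6 libraries. Dnmt3aKO and Jak2VF showed -0.13 ± 0.15 and -0.01 ± 0.15. With LDL, Cfp was lower than in WT in Dnmt3aKO by 0.58 ± 0.15 (adjusted p = 0.0124) and in Jak2VF by 0.62 ± 0.15 (adjusted p = 0.0142). Cfp too was highest in WT LDL replicate 1, without which these values were -0.40 (adjusted p = 0.0862) and -0.45 (adjusted p = 0.0899). The Dnmt3aKO call was also lost without its LDL replicate 1 (adjusted p = 0.053), and the Jak2VF call without its LDL replicate 1 (adjusted p = 0.0684) or 3 (adjusted p = 0.0884). With the length slope as a covariate Cfp rose with LDL in Jak2VF, by 0.27 (adjusted p = 0.00146). In batch 1 Cfp held 468 to 802 CPM in Tet2KO and 285 to 356 CPM in WT with vehicle, without overlap (0.87 ± 0.21, adjusted p = 0.0863).

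C3ar1 encodes the receptor for C3a, the small fragment released when C3 is cleaved, and lies at chr6:122847138-122856161 (GRCm38). It fell with LDL in each genotype of the main set, while C3 rose. C3ar1 held 725, 743 and 750.1 CPM in Dnmt3aKO with LDL, against 1095, 977 and 991 CPM with vehicle (-0.47 ± 0.06, adjusted p = 1.64e-05). In WT it held 806, 802 and 874 CPM with LDL, against 988, 965 and 991 CPM with vehicle (-0.25 ± 0.06, adjusted p = 0.0111). LDL and vehicle libraries were apart in all 4 genotypes. The fall was 0.44 ± 0.06 in Tet2KO and 0.22 ± 0.06 in Jak2VF (adjusted p = 0.019), a call lost without Jak2VF vehicle replicate 2 or LDL replicate 1 or 3. The WT call was lost without WT LDL replicate 1 (adjusted p = 0.0797). Jak2VF held less C3ar1 than WT in both treatments: 618, 609 and 598 CPM against 806, 802 and 874 CPM with LDL (-0.44 ± 0.06, adjusted p = 0.000187), and 674, 733 and 723 CPM against 988, 965 and 991 CPM with vehicle (-0.47 ± 0.06, adjusted p = 7.76e-05). Macrophage markers were lower there as well. Of 7 with values of their own, 5 lay below WT without overlap with LDL and 5 with vehicle, among them Adgre1 (492 to 532 CPM in Jak2VF, against 754 to 793 CPM in WT, with LDL, and 707 to 785 CPM in Jak2VF, against 1160.3 to 1228 CPM in WT, with vehicle) and Csf1r in both treatments. Their summed level, mostly Lyz2, was 19100 to 22500 CPM in Jak2VF, against 23900 to 32000 CPM in WT, with LDL and overlapped with vehicle. With LDL against vehicle, Adgre1 and Mertk were lower without overlap in all 4 genotypes, and Cd14 was higher. The part of the markers in the C3ar1 differences was not tested. In Tet2KO C3ar1 was lower than in WT with LDL by 0.33 ± 0.06 (adjusted p = 0.00446). In batch 1 the LDL response was -0.29 ± 0.15 in Tet2KO and -0.16 ± 0.15 in WT, neither called.

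Cd55, or decay-accelerating factor, is a membrane protein that takes C3 convertases apart, and lies at chr1:130439027-130462744 (GRCm38, minus strand). Its RefSeq promoter window (GRCm38.p6, minus strand, 5′ to 3′) is shown because Cd55 was the member called in Tet2KO in both treatments of both sets, and Tet2 acts on methylated CG pairs. Capitals mark each CG.
Cd55, chr1:130462695-130462994: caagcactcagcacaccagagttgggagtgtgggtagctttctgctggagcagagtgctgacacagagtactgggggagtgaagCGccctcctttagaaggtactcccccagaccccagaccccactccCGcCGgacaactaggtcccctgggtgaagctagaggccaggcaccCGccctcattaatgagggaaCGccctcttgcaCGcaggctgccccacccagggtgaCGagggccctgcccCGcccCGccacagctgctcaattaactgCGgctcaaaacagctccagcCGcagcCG
It held 12 CG pairs, against a median of 7 over promoters of this length, and 62.1% of promoters had as many or fewer. Methylation was not measured in the data used here.

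Cd55 was higher in Tet2KO macrophages than in WT. It held 15.8, 12.3 and 9.16 CPM in Tet2KO with LDL, against 5.46, 4.79 and 3.51 CPM in WT with LDL. With vehicle it held 14.3, 12.8 and 14.2 CPM in Tet2KO, against 6.80, 5.80 and 5.80 CPM in WT. No Tet2KO library overlapped a library of another genotype in the main set. The difference was 1.43 ± 0.17 log2 units with LDL (edgeR adjusted p = 1.31e-05) and 1.17 ± 0.16 with vehicle (adjusted p = 7.89e-05), which is 2.25-fold. In batch 1 Cd55 held 23.2 and 18.1 CPM in Tet2KO with LDL, against 1.93 and 2.32 CPM in WT with LDL (3.26 ± 0.24, adjusted p = 0.00287). With vehicle it held 13.7, 18.6 and 15.1 CPM in Tet2KO, against 2.44, 3.20 and 2.28 CPM in WT (2.58 ± 0.19, adjusted p = 0.000646), and it was the 1 member called there, where 1.89% of genes were called. Leaving out any 1 library kept all 4 calls, with adjusted p up to 0.0257. Fitted on the compared groups alone, both vehicle calls were kept and both LDL calls were lost, at 1.43 (adjusted p = 0.0949) in the main set and 3.26 (adjusted p = 0.0557) in batch 1. The sum of T and NK cell markers was also higher in Tet2KO than in WT (55.5 to 59.1 CPM against 27.1 to 28.7 CPM with vehicle in the main set, 13.6 to 20.7 CPM against 6.16 to 8.95 CPM in batch 1). In Tet2KO with LDL in the main set that sum was 18.3 to 22.4 CPM, below its vehicle range, while Cd55 held 9.16 to 15.8 CPM. The sum was still above that of WT with LDL (13.9 to 16.2 CPM) without overlap. In batch 1 with LDL it was 13.4 to 18.0 CPM in Tet2KO, against 4.28 to 5.13 CPM in WT. The mast cell and basophil sum was above WT without overlap in both treatments of both sets: 14.2 to 19.9 CPM in Tet2KO against 10.3 to 12.8 CPM in WT with LDL and 10.3 to 11.8 CPM against 6.03 to 7.86 CPM with vehicle in the main set, and 6.43 to 14.4 CPM against 3.26 to 4.76 CPM with LDL and 5.58 to 11.7 CPM against 2.95 to 3.62 CPM with vehicle in batch 1. With vehicle in the main set the B cell sum (32.1 to 38.1 CPM, against 15.6 to 24.3 CPM in WT) and the monocyte sum (412 to 495 CPM, against 217 to 238 CPM in WT) were higher too. With LDL in the main set both were above WT as well, at 19.8 to 29.4 CPM against 12.1 to 17.6 CPM and at 128 to 202 CPM against 92.0 to 124 CPM. In batch 1 the monocyte sum was lower with vehicle (16.6 to 21.4 CPM, against 26 to 34.6 CPM in WT) and with LDL (15.1 to 16.6 CPM, against 19.7 to 33.2 CPM in WT). No marker of these 4 lists was at 0 throughout, and their part in the Cd55 difference was not tested.

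In Dnmt3aKO Cd55 fell with LDL. It held 2.84, 2.53 and 3.21 CPM with LDL, against 5.5, 5.25 and 5.37 CPM with vehicle (-0.91 ± 0.18, adjusted p = 0.000812). The groups were well apart and each fit without 1 library kept the call. Against WT with LDL it was lower by 0.68 ± 0.18 (adjusted p = 0.0122), a call lost without WT LDL replicate 1 (-0.54, adjusted p = 0.0837) or Dnmt3aKO LDL replicate 2 (-0.58, adjusted p = 0.0686). In Jak2VF Cd55 was at 8.0, 6.86 and 6.40 CPM with LDL and was higher than in WT by 0.62 ± 0.17 (adjusted p = 0.0235), a call lost without WT LDL replicate 3 (adjusted p = 0.111) or Jak2VF LDL replicate 1 (adjusted p = 0.117). Against Dnmt3aKO, Cd55 in Tet2KO was the higher one, and Dnmt3aKO minus Tet2KO was -1.36 ± 0.16 with vehicle and -2.12 ± 0.18 with LDL. The mouse paralog Cd55b was at most 0.198 CPM in any main library, and reads that both genes match could have been counted to either. An antisense gene, Gm16083, shares 2.1% of the Cd55 exon bases and was at most 0.206 CPM.

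**Figure D5:**
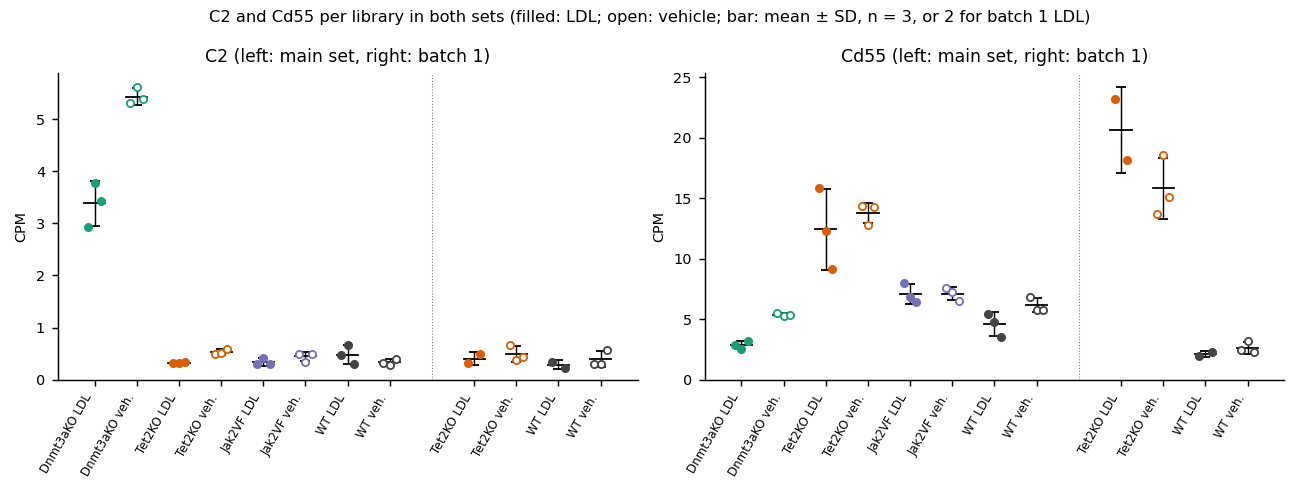
Level (CPM) of C2 and Cd55 in every library of the main set (left of the dotted line) and of batch 1 (right of it), scaled within each set. Points are libraries, filled for LDL and open for vehicle, with bars for the mean and SD of 3 (2 for LDL in batch 1). C2 is at 2.93 CPM or more in Dnmt3aKO and at 0.667 CPM or less elsewhere, and Cd55 in Tet2KO lies above WT in both sets.

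Of 49 other complement genes, 35 were tested in the main set and 26 in batch 1. With LDL, 4 of the 35 rose and 5 fell in Dnmt3aKO, where 6.41% of all genes rose and 8.96% fell. In Tet2KO 5 rose and 4 fell (all genes 8.59% and 8.21%), in Jak2VF 5 rose and 4 fell (8.44% and 9.72%), and in WT 8 rose and 2 fell (6.67% and 7.58%). The median log2 fold change of the list was -0.15 in Dnmt3aKO, -0.10 in Tet2KO, -0.05 in Jak2VF and 0.19 in WT. The C5a receptor C5ar1 rose in each of the 4, by 0.63 ± 0.09 in Dnmt3aKO, 0.93 ± 0.09 in Tet2KO, 1.05 ± 0.09 in Jak2VF and 0.80 ± 0.09 in WT. Itgb2, the shared chain of the C3 fragment receptors, rose by 0.46 to 0.62, and Colec10, a lectin, fell by 1.15 to 1.8. Colec10 was at low counts, 9 to 28 per main library with LDL (0.262 to 0.668 CPM, against 0.832 to 2.06 CPM with vehicle). The C5a and C3a receptors thus moved in opposite directions with LDL in each genotype of the main set. C4b, which encodes the partner of C2 in the classical convertase, fell with LDL in Dnmt3aKO by 0.75 ± 0.14 (4.89 to 6.23 CPM with LDL, 8.11 to 10.3 CPM with vehicle), in Tet2KO by 0.54 ± 0.14 and in Jak2VF by 0.43 ± 0.14.

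Against WT, 7 of the 35 were higher and 2 lower in Dnmt3aKO with vehicle (all genes 5.58% and 5.51%), and 4 higher and 5 lower with LDL (8.01% and 9.46%). The second C5a receptor, C5ar2, held 38.5 to 47.4 CPM in Dnmt3aKO against 17.2 to 18.8 CPM in WT with vehicle (1.24 ± 0.13). Itgb2 was higher by 0.44 ± 0.07 and Itgax, a partner chain of Itgb2, by 0.75 ± 0.16. In Tet2KO with vehicle 1 was higher and 2 lower (all genes 2.76% and 2.72%). The higher one was Cfi, the protease that inactivates C3b, at 1.72 ± 0.30 (24 to 35 counts in Tet2KO, 8 to 11 in WT). In Jak2VF with vehicle 4 were higher and 3 lower (all genes 4.29% and 5.26%), including C5ar1 (-0.49 ± 0.09) and Cd93, a phagocytic receptor once described as a C1q receptor (-1.0 ± 0.20). With LDL edgeR called 0 of the 35 in Jak2VF, where 7 of 34 (Itgam, entered under 2 gene IDs, left out) passed an unadjusted p under 0.05, as did 29.5% of all genes. In batch 1 with vehicle, 1 of the 26 was higher and 3 lower (all genes 0.73% and 1.16%): C5ar2 (-1.36 ± 0.13), Itgax (-4.00 ± 0.40) and Itgb2 (-0.81 ± 0.11) were lower in Tet2KO, and Cd59a, which blocks the terminal complex, was higher. In the main set with vehicle Itgb2 was not lower in Tet2KO (344 to 368 CPM, against 320.2 to 337 CPM in WT). Itgax (3.05 to 3.55 CPM, against 4.1 to 5.4 CPM) and C5ar2 (14.2 to 15.6 CPM, against 17.2 to 18.8 CPM) lay below WT there. In CPM, which do not rank genes of unequal length, levels in the main set were 957 to 2243 for Lrp1, 1003 to 1882 for Calr, 260.2 to 738 for C5ar1, 276 to 660.5 for Itgb2, 216 to 611 for Cd93, 148 to 251 for Colec12 and 99.5 to 245 for Serping1, the inhibitor of C1. Of the terminal components, Hc, which encodes C5, was at most 0.238 CPM and C9 at most 0.174 CPM, while C8g, a chain of C8, held 1.88 to 4.41 CPM.

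Over the 24 main libraries the log2 levels of the C1q chains went together (Pearson r 0.945 for C1qa with C1qb, 0.916 for C1qa with C1qc and 0.955 for C1qb with C1qc). C3 and C1qa ran opposite (r -0.64), and C2 had r between 0.071 and 0.134 with the chains. The genes with the pattern most like C3 were Il1b (r 0.973) and Fpr1 (0.971), for C3ar1 Slc46a3 (0.962) and Acss1 (0.955), and for C2 St6galnac1 (0.957) and Apoc1 (0.949). For C1qa these were Vegfb (0.95) and Syce2 (0.949), for C1qb Clec2d (0.963) and Smagp (0.957), and for C1qc Tpra1 (0.959) and Smagp (0.942). Cfp was most like Tpi1 (0.938) and Ubb (0.928), Cd55 most like Gpr171 (0.879) and Sigirr (0.857), and Cfb, at its few counts, most like Fam114a2 (0.774) and P4ha1 (0.72). These libraries share genotype, treatment and the length slope, so the values are descriptions.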

How the data were processed

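Whole-number counts of each gene make up both deposited tables. Although their names call them normalized, totals differ 1.82-fold in the main set and 2.93-fold in batch 1, so they were read as raw counts. The build was mm10, per the submitters' processing notes, and for the aligner, counting tool, annotation and strand setting the answer is not given in the sources used here. RNA was depleted of ribosomal RNA and polyA-selected, per the labels. All 34 libraries were used, and 0 value columns were left out.

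Each table was fitted apart with edgeR 4.0.16 (R 4.3.3): TMM scaling, the quasi-likelihood test with 1 mean per group and a spread shared by all groups, a filter of 10 counts or more in 3 or more libraries (2 in batch 1), two-sided, Benjamini-Hochberg over the 19444 and 15481 genes tested. The SE was taken from the log2 fold change and its F statistic. Calls of changed genes were tested on simulated counts. Alternatives were DESeq2 1.42.0, no TMM, no filter, the compared groups alone, a replicate block, leaving out libraries, and, added after the values were seen, a length slope covariate and length and GC offsets from GENCODE gene models of GRCm38. Promoters came from RefSeq (GRCm38.p6) for 6 of 9 members.

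The members, the lists of other complement genes and markers, the 2 libraries left out together and the tests were chosen with earlier results of these data known. Named in the text are all 9 members, per comparison up to 3 called genes of the other complement genes with the smallest adjusted p, other complement genes of at least 10 CPM for levels, the 2 genes most like each member, the targeted genes, and markers that moved with a member. C4b, Cd93, Cd59a, Hc, C9, C8g, Gfap, Dcn and Cd55b were named after their values were seen. The contrasts between mutants, the ratio tests and the marked motifs were also chosen after the values were seen.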

Additional observations from a re-analysis of the deposited data

Results flagged for a closer look

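Both results below passed the edgeR test of the difference between the LDL responses of Jak2VF and WT. For C1qc the Jak2VF response minus the WT response was -1.285 log2 units (adjusted p = 0.0289): it held 337 ± 29.8 CPM with LDL and 952 ± 173 CPM with vehicle in Jak2VF, and 882 ± 209.7 CPM with LDL and 1022 ± 234 CPM with vehicle in WT (SD, n = 3 each). The difference was called in 5 of 12 fits that left out 1 library, and lost without WT vehicle replicate 2 or 3, WT LDL replicate 1, Jak2VF vehicle replicate 1 or 2 or Jak2VF LDL replicate 1 or 3 (adjusted p up to 0.105). For C3 it was -0.619 log2 units (adjusted p = 0.0345): it held 154 ± 10.4 CPM with LDL and 108 ± 13.7 CPM with vehicle in Jak2VF, and 174 ± 15.7 CPM with LDL and 79.8 ± 6.57 CPM with vehicle in WT. It too was called in 5 of 12 such fits, and lost without WT vehicle replicate 2 or 3, WT LDL replicate 1 or 3, Jak2VF vehicle replicate 1 or Jak2VF LDL replicate 1 or 3 (adjusted p up to 0.122).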

How the results depend on the processing

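Counts of members called moved by over 1.5 times as follows. Brackets give the genes called among all tested in the same fit. Those tested were 19444 in the main set and 15481 in batch 1, and more without a filter. The number of all genes called moved with the setting as well. For the LDL response of WT (3, 2770 genes), 1 was called on the compared groups alone (1261 genes), 7 with the length slope (4165 genes) and 5 with the offsets (3419 genes). In fits without 1 library it was 1 to 3 (1867 to 3930 genes). For that of Tet2KO (3, 3267 genes), 5 were called by DESeq2 (3745 genes), 5 without TMM (3184 genes) and 6 without a filter (2773 genes). It was 5 with the title numbers as a replicate block (3516 genes), 6 with the length slope (4793 genes) and 6 with the offsets (4243 genes). Without 1 library it was 2 to 5 (2318 to 4088 genes). Against WT with vehicle, Jak2VF (2, 1857 genes) had 1 on the compared groups alone (724 genes), 5 with the length slope (3604 genes) and 4 with the offsets (2684 genes). Without 1 library it had 1 to 2 (1005 to 2069 genes). Against WT with LDL, the main fit gave 7 in Dnmt3aKO (3397 genes), 5 in Tet2KO (537 genes) and 6 in Jak2VF (1938 genes). The compared groups alone gave 4 (1284 genes), 0 (38 genes) and 1 (264 genes). Tet2KO had 3 without the 2 libraries with Gfap (289 genes), and Dnmt3aKO 4 to 7 without 1 library (1842 to 5795 genes). For the response minus that of WT, Dnmt3aKO (0, 84 genes) had 1 by DESeq2 (458 genes), 3 without a filter (208 genes) and 1 without the Gfap libraries (59 genes). It had 5 with the length slope (774 genes), 1 with the offsets (227 genes) and 0 to 2 without 1 library (41 to 645 genes). Tet2KO (0, 20 genes) had 2 with the length slope (502 genes). Jak2VF (2, 480 genes) had 4 by DESeq2 (1807 genes), 4 without a filter (1963 genes) and 0 on the compared groups alone (22 genes). It had 4 with the block of title numbers (654 genes), 0 without the Gfap libraries (229 genes), 1 with the length slope (320 genes) and 0 to 5 without 1 library (91 to 3600 genes). In batch 1 the LDL response of Tet2KO (0, 0 genes) had 1 by DESeq2 (196 genes). Tet2KO against WT with vehicle (1, 292 genes) had 3 by DESeq2 (693 genes), 2 without TMM (267 genes) and 2 with the length slope (800 genes). It had 2 with the offsets (426 genes) and 1 to 2 without 1 library (70 to 249 genes). With LDL (2, 83 genes) it had 0 on the compared groups alone (1 gene) and 1 with the block (31 genes). Its fits without 1 library, which left 1 library in a group, moved the count too and are not counted here. Of the contrasts between mutants, Dnmt3aKO against Tet2KO with vehicle (3, 1707 genes) had 5 on the compared groups alone (3443 genes). With LDL (2, 2203 genes) it had 5 with the length slope (4198 genes). Dnmt3aKO against Jak2VF with vehicle (4, 3729 genes) had 8 with the length slope (5802 genes) and 8 with the offsets (4781 genes). Tet2KO against Jak2VF with vehicle (3, 3010 genes) had 5 with the length slope (2814 genes). With LDL (2, 1187 genes) it had 6 with the length slope (2296 genes), 4 without a filter (1107 genes) and 1 on the compared groups alone (372 genes). The LDL counts of Dnmt3aKO and Jak2VF and the vehicle counts of Dnmt3aKO and Tet2KO stayed within 1.5 times under each alternative run.

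Reversed values were Cfp for LDL in Jak2VF (0.274 with the length slope, 0.248 with the offsets), Cfp for Tet2KO against Jak2VF with vehicle (0.291 and 0.232) and C1qb for that comparison (0.336 with the length slope). The cause was not tested. Same-numbered libraries did not deviate together (median r 0.018, range -0.449 to 0.544), so the numbers were not taken to pair samples. Depth limits Cfb, at 13 counts or fewer, and C2 outside Dnmt3aKO, at 24 or fewer.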
